A study of Mus musculus with 6 samples.

Results

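Genes of the JAK-STAT pathway and of its SOCS inhibitors were followed in mouse CD8+ T cells cultured with vehicle or with aminoxyacetic acid (AOA), an inhibitor of enzymes that use pyridoxal 5′-phosphate, the active form of vitamin B6. The 10 genes are Jak1, Jak3, Stat3, Stat4, Stat5a, Stat5b, Cish, Socs1, Socs2 and Socs3. They were taken by symbol from the 11922 genes of the count table, and all 10 were found and passed the filter on low counts, as did 11759 genes in all.

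Splenic CD8+ T cells of 3 C57BL6/J mice, purified on beads against CD8α, were activated with beads carrying antibodies to CD3 and CD28. After 72 hours the cells were taken off the beads and grown for another 4 days. The vehicle group received water and the AOA group received 0.25 mM AOA throughout, and all cultures held recombinant human IL-2 at 100 units per ml. RNA was taken on day 7, with 3 libraries per group, since every mouse contributed to both. The labels do not state the age of these mice. The cultures are polyclonal and in vitro, and a fall in a gene's level in bulk RNA cannot be told apart from fewer cells that express it.

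Receptors for IL-2 and related cytokines have no enzyme activity of their own and rely on Janus kinases (JAKs) bound to their tails. When cytokine binds, the JAKs phosphorylate the receptor and then STAT proteins, which pair up, enter the nucleus and switch on genes. IL-2 signals through JAK1 and JAK3 to STAT5A and STAT5B. Among the genes that STAT5 switches on is Cish, and the CIS and SOCS proteins made from such genes dampen the receptor in a feedback loop. STAT4 carries signals of IL-12 and STAT3 those of the IL-6 family and IL-21.

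Library totals lay between 12881962 and 18934869 counts with vehicle and between 18696114 and 21997078 with AOA, so that each of the 10 genes had at least 577 counts in every library. Levels are given as CPM, a count scaled by library size after TMM normalisation, and comparisons between genes as RPKM, which divides by gene length. Log2 fold changes are AOA relative to vehicle, and a gene is called changed at an adjusted p under 0.05 by the quasi-likelihood test of edgeR. Vehicle replicate 2 stood apart from vehicle replicates 1 and 3 on the second principal component, which held 10.8% of the variance, and results are given without it below. All 6 CD8+ T cell markers listed were well detected in every library, and the lowest level was 299 CPM, for Cd3e in AOA replicate 1. Cd8a (log2 fold change 1.03, adjusted p = 0.00128 by edgeR) and Cd8b1 (0.64, adjusted p = 0.0148) were called higher with AOA, and Cd3d, Cd3e, Cd3g and Cd247 were not called, with log2 fold changes of -0.13, -0.27, -0.31 and -0.16. Markers of other cells moved too. The summed level of Cd4 and Foxp3 was 77.4 to 132 CPM with vehicle and 21.2 to 30.5 CPM with AOA, where Cd4 fell (-3.08 in log2 fold change, edgeR, adjusted p = 1.29e-04) and Foxp3 was not called (0.36, adjusted p = 0.127). For the 4 myeloid markers examined of 6 listed it was 55.5 to 67.5 CPM against 4.18 to 7.82 CPM, nearly all from Itgam and Cd68, while Lyz2 and Cd14 were at 1.16 CPM or less in every library. The 2 NK markers examined of 3 listed summed to 20.1 to 114 CPM against 3.53 to 11.6 CPM, with Ncr1 at 0 in vehicle replicates 1 and 3. The 4 B cell markers examined of 5 listed summed to 12.6 to 16.6 CPM against 22.6 to 30.7 CPM. Erythroid markers were not analysed here. Whether these cells contribute to the changes described here was not tested.

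Both kinase genes and all STAT genes of the 10 except Stat5a were lower after AOA treatment, while the feedback inhibitors divided. Of the 10 genes, 6 fell (Jak1, Jak3, Stat3, Stat4, Stat5b and Socs3), 2 rose (Cish and Socs2) and 2 were not called (Stat5a and Socs1). Among all genes tested, 26.8% were called lower and 26.2% higher, or 53.0% in either direction. The median log2 fold change of the 10 genes was -0.64, against -0.025 over all tested genes. In 8 of the 10 the AOA and vehicle libraries did not overlap, which held for 62.1% of all genes. Asking also for a change of 1 or more on the log2 scale in either direction left Cish among the higher genes and Jak1, Jak3 and Stat4 among the lower, where 12.1% and 14.1% of all tested genes passed.

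**Figure D1:**
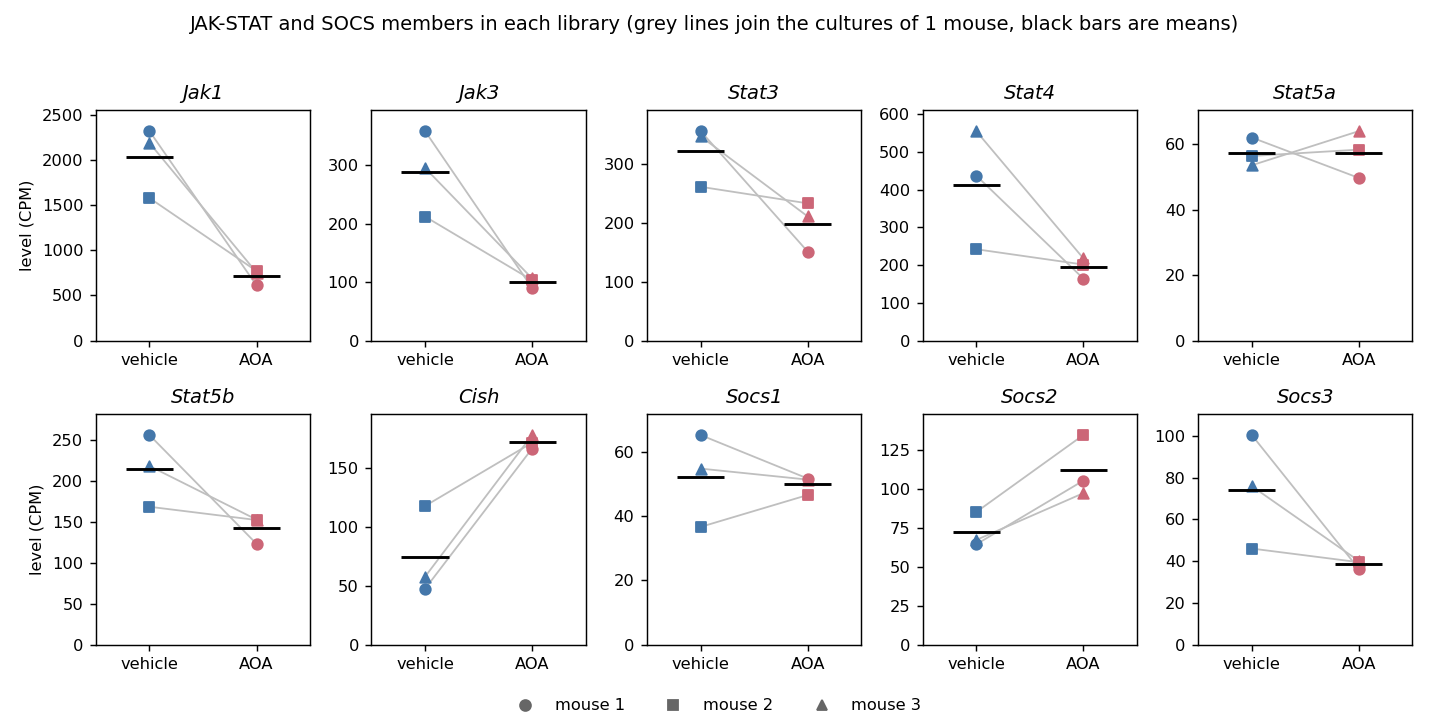
Level of each of the 10 genes in CPM (linear axis from 0) in the 3 vehicle libraries (blue) and the 3 AOA libraries (red). Grey lines join cultures of the same mouse, marked by symbol, and black bars are group means. Jak1 lies between 1578 and 2319 CPM with vehicle and below 770 CPM with AOA, and Cish lies above 166 CPM with AOA.

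Jak1 (Entrez gene 16451, chr4:101151974-101265282 of GRCm38) encodes the kinase bound to many cytokine receptors, including the β chain of the IL-2 receptor. Its level was 2319, 1578 and 2188 CPM in vehicle replicates 1, 2 and 3, against 610, 770 and 753 CPM in AOA replicates 1, 2 and 3. The groups were far apart, and the lowest vehicle library was vehicle replicate 2. Jak1 fell 2.85-fold, or -1.51 ± 0.20 (SE) as log2 fold change, with an adjusted p of 3.24e-04 in the edgeR test.

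Jak3 (Entrez gene 16453, chr8:71676383-71690577) encodes the kinase that pairs with the common γ chain of the receptors for IL-2, IL-7 and IL-15. Its level was 359, 212 and 296 CPM with vehicle and 90.1, 103 and 106 CPM with AOA. Jak3 fell to nearly the same extent as Jak1, 2.89-fold, or -1.53 ± 0.20 (SE) as log2 fold change (edgeR, adjusted p = 2.75e-04). The length-scaled ratio of Jak1 to Jak3 was 4.92 in both groups as a geometric mean. On the log2 scale it was 2.30 ± 0.11 (SD, n = 3) with vehicle and 2.30 ± 0.07 (SD, n = 3) with AOA, a difference of 0.0014 (exact two-sided permutation test, p = 0.9).

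The other kinases of the family were also lower. Jak2, which serves receptors such as those for IFNγ and IL-12, went from 287 ± 7.75 CPM under vehicle to 119.6 ± 11.5 CPM under AOA (SD, n = 3 each), which is -1.26 on the log2 scale (edgeR, adjusted p = 1.03e-04). Tyk2, which serves the receptors for type I interferon and IL-12, had a log2 fold change of -0.95 (adjusted p = 5.69e-04 by edgeR). All 4 JAK genes were thus called lower, as were 26.8% of all tested genes, and each kept its call with any library left out. Their summed RPKM was 616, 442 and 573 under vehicle and 172, 212 and 210.5 under AOA. Jak1 made up 70.2% ± 2.46 (SD, n = 3) of this sum with vehicle and 67.7% ± 0.82 (SD, n = 3) with AOA. Shares of the other 3 overlapped between the groups for Jak2 and Jak3, whereas Tyk2 took 4.06% to 6.28% with vehicle and 6.43% to 6.86% with AOA.

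Stat4 (Entrez gene 20849, chr1:51987106-52107189) encodes the STAT through which IL-12 acts in effector T cells. Its level was 437, 242 and 555 CPM with vehicle and 164, 201 and 218 CPM with AOA. In mouse 2 the difference between the cultures was small, with a within-mouse log2 difference of -0.26, against -1.41 and -1.35 in mice 1 and 3. Over the 3 mice Stat4 fell 2.12-fold, -1.08 ± 0.27 (SE) in log2 fold change (edgeR, adjusted p = 0.00877). The call was lost without AOA replicate 1 (-0.97, adjusted p = 0.0539 by edgeR).

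Stat3 (Entrez gene 20848, chr11:100886806-100939594) encodes the STAT of the IL-6 family, IL-10 and IL-21. Its level was 357, 262 and 348 CPM with vehicle and 151, 234 and 211 CPM with AOA. The groups did not overlap, but vehicle replicate 2 and AOA replicate 2 came from the same mouse and lay close to each other. Stat3 fell 1.62-fold (-0.70 ± 0.20 SE in log2 fold change, edgeR, adjusted p = 0.0148), and the call was lost without vehicle replicate 1 (adjusted p = 0.0647) or vehicle replicate 3 (adjusted p = 0.0557).

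Stat5b (Entrez gene 20851, chr11:100780731-100859004) and Stat5a (Entrez gene 20850, chr11:100859351-100885169) encode the closely related STATs activated by IL-2. Only 346 bases separate the genes in the RefSeq annotation, and another 1636 bases separate Stat5a from Stat3, so that the 3 genes occupy 158864 bases. Stat5b was at 256, 168 and 218 CPM with vehicle, against 123, 152 and 153 CPM with AOA. It fell 1.502-fold (-0.59 ± 0.18 SE in log2 fold change, edgeR, adjusted p = 0.0203). This was the least secure of the falls, since the call was lost without vehicle replicate 1 (-0.42, adjusted p = 0.105), vehicle replicate 3 (-0.54, adjusted p = 0.0630) or AOA replicate 1 (-0.49, adjusted p = 0.0678).

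Stat5a was at 62.0, 56.4 and 53.5 CPM with vehicle and 49.7, 58.3 and 64.0 CPM with AOA. The groups overlapped fully, and the mice moved in different directions. Its log2 fold change was 0.00069, with a 95% interval from -0.31 to 0.32 (adjusted p = 0.997 by edgeR). Per length, Stat5b was the more abundant of the pair in every library. The ratio of Stat5a to Stat5b was 0.380 with vehicle and 0.563 with AOA, and rose in 3 of 3 mice. On the log2 scale the ratio was -1.40 ± 0.26 (SD, n = 3) and -0.83 ± 0.06 (SD, n = 3), a difference of 0.57 with no overlap between groups (exact two-sided permutation test, p = 0.1, adjusted p = 0.25 over the 5 pairs compared). A p of 0.1 is the smallest that 3 libraries against 3 can give, so this test cannot pass 0.05. It treats the libraries as unpaired. An exact sign-flip test that keeps the 3 mice paired has a smallest p of 0.25 and cannot pass 0.05 either. The genes are similar enough to share reads. Of the 75-base stretches of the longest protein-coding GENCODE transcript, 10.1% of those of Stat5a occur unchanged in a Stat5b transcript, and reads from these stretches are not unique to either gene. Counted the same way, Stat4, Jak3, Cish and Socs2 share 8.37% to 25.9% of their stretches with other annotated genes. This count does not separate overlapping annotation from similar sequence elsewhere, and how reads from such stretches were assigned is not known.

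Outside the 10, Stat2 and Stat6 were called lower as well, so that 5 of the 6 STAT genes examined fell and Stat5a was not called, where 26.8% of all tested genes fell. Stat2 carries interferon signals and Stat6 those of IL-4. Stat2 went from 89.9 ± 8.02 CPM under vehicle to 48.1 ± 3.85 CPM under AOA (SD, n = 3 each), which is -0.90 on the log2 scale (edgeR, adjusted p = 5.29e-04). Stat6 had a log2 fold change of -0.66 (adjusted p = 0.00433 by edgeR). The share of Stat5a in the summed RPKM of these 6 genes was 3.37% to 5.23% with vehicle and 6.77% to 7.34% with AOA.

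**Figure D2:**
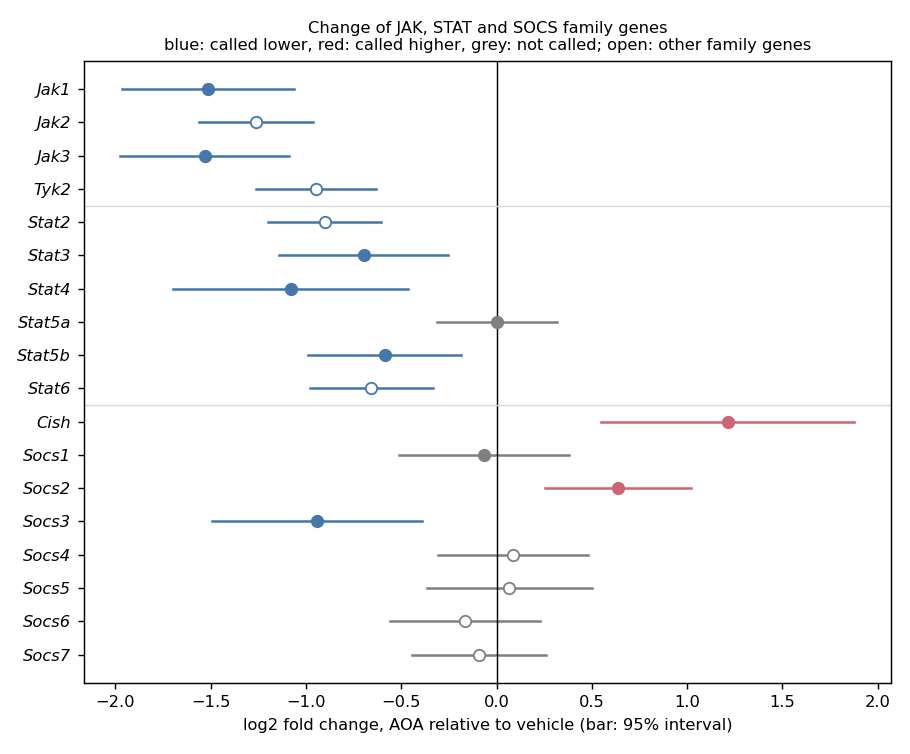
Log2 fold change of AOA relative to vehicle (edgeR, 3 libraries per group) for the 4 JAK, 6 STAT and 8 CISH and SOCS genes, with 95% intervals as bars. Filled points are the 10 genes described here and open points the others of the families, in blue where called lower, red where called higher and grey where not called. All 4 JAK genes lie to the left of 0, whereas Cish at 1.21 and Socs2 at 0.64 lie to the right.

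Cish (Entrez gene 12700, chr9:107296659-107302784) encodes CIS, which binds the activated IL-2 receptor and limits signalling. It had the largest rise of the 10 genes. Its level was 47.3, 118 and 57.6 CPM with vehicle and 167, 171 and 178 CPM with AOA. The AOA cultures agreed closely with each other, while vehicle replicate 2 lay well above the other vehicle cultures. Cish rose 2.32-fold (1.21 ± 0.30 SE in log2 fold change, edgeR, adjusted p = 0.00739), and without vehicle replicate 2 it rose 3.36-fold (log2 fold change 1.75, adjusted p = 2.08e-05 by edgeR). Its call held with each library left out.

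STAT dimers bind palindromes of the form TTCNNNGAA, and the promoter windows of the 10 genes were searched for it since the genes for the inhibitors are themselves switched on by STATs. The RefSeq windows on GRCm38 run from 250 bases before an annotated start to 50 after it, and 9 of the 10 genes had at least 1 (Socs2 is not among them). For Socs3, Stat5a and Stat5b the windows used lie wholly inside the gene interval, so its outer end was not searched. The starts used for Jak1, Stat3 and Stat4 also lie inside the gene interval, but a window of each reaches past the outer end. The motif reads the same on both strands, and none of these windows held the form with 1 more base in its gap. Of the 9 genes, 2 held TTCNNNGAA, against 9.55% of the 27025 genes with a window. The stretches are shown here with the motif in capitals, from chr9:107296654-107296683 on the plus strand and chr11:117969502-117969530 on the minus strand, each 5′ to 3′.
Cish: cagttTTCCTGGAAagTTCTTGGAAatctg
Socs3: gaaaccagccTTCTTAGAAgggagggggg
Cish held the motif at 2 places, 2 bases apart and beginning at the annotated start itself, and 2 or more matches occurred in 0.457% of the 32851 windows. Socs3 held a single match, 154 bases before the start its window is built on, at 117969366, which lies inside the gene interval given for Socs3 below. The window of Socs1, the windows of both JAK genes and those of all 4 STAT genes held no match to these letters. A match is a description of the sequence, and no binding was measured.

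Socs2 (Entrez gene 216233, chr10:95383903-95417321), which encodes an inhibitor best known from growth hormone signalling, was the other inhibitor that rose. Its level was 64.3, 85.0 and 67.1 CPM with vehicle and 105, 134 and 97.1 CPM with AOA. In contrast to most of the 10 genes, the change was alike in the 3 mice, with within-mouse log2 differences of 0.71, 0.66 and 0.53. Socs2 rose 1.56-fold (0.64 ± 0.17 SE in log2 fold change, edgeR, adjusted p = 0.0112), and the largest adjusted p with any library left out was 0.0461. The length-scaled ratio of Cish to Socs2 was higher with AOA in 2 of 3 mice, with a difference of 0.69 on the log2 scale and overlapping groups (exact two-sided permutation test, p = 0.2, adjusted p = 0.33 over the 5 pairs).

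Socs3 (Entrez gene 12702, chr11:117966079-117970336), which encodes the inhibitor of receptors of the IL-6 family, moved the opposite way. It was at 100.5, 46.0 and 75.9 CPM with vehicle and 36.2, 39.5 and 40.05 CPM with AOA. Vehicle replicate 2 lay near the AOA cultures and the other vehicle cultures well above them. Socs3 fell 1.92-fold (-0.94 ± 0.24 SE in log2 fold change, edgeR, adjusted p = 0.0100). Without AOA replicate 1 the call was lost at almost the same fold change (-0.89, adjusted p = 0.0556).

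Socs1 (Entrez gene 12703, chr16:10783808-10785536), which encodes an inhibitor that acts on the JAKs directly and restrains interferon and common γ chain signals, was not called. It was at 65.2, 36.6 and 54.7 CPM with vehicle and 51.6, 46.5 and 51.3 CPM with AOA. The AOA libraries lay within the vehicle range, and the log2 fold change of -0.065 had a 95% interval from -0.51 to 0.38 (adjusted p = 0.802 by edgeR). The ratio of Socs1 to Socs3, per length, was 1.46 with vehicle and 2.63 with AOA and was higher with AOA in 3 of 3 mice. The difference of 0.84 on the log2 scale came with no overlap between groups (exact two-sided permutation test, p = 0.1, the smallest possible, adjusted p = 0.25 over the 5 pairs). The ratio of Stat3 to Stat4 differed by 0.30 on the log2 scale with overlapping groups (p = 0.3 by the same exact test, adjusted p = 0.38), and by 0.11 without vehicle replicate 3 and 0.50 without vehicle replicate 2.

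Socs4, Socs5, Socs6 and Socs7 were not called either, with log2 fold changes between -0.17 and 0.09 and intervals that reached from -0.56 at the lowest to 0.50 at the highest. Their levels were lower than those of the 4 inhibitors above, between 4.11 and 12.7 RPKM as group means. Of the 8 CISH and SOCS genes, then, 2 rose, 1 fell and 5 were not called, where 26.2% of all tested genes rose and 26.8% fell. Their summed RPKM was 155, 147 and 140.5 with vehicle and 175, 188 and 177 with AOA, in contrast to the falling sums of the JAK and STAT genes. The sum of the 6 STAT genes went from 378, 277 and 409 RPKM to 174, 222 and 226 RPKM. Within the inhibitors, Cish made up 10.1%, 26.5% and 13.6% of the family sum with vehicle and 31.6%, 30.2% and 33.4% with AOA. The share of Socs3 was 11.5% to 23.8% with vehicle and 7.59% to 8.32% with AOA.

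**Figure D3:**
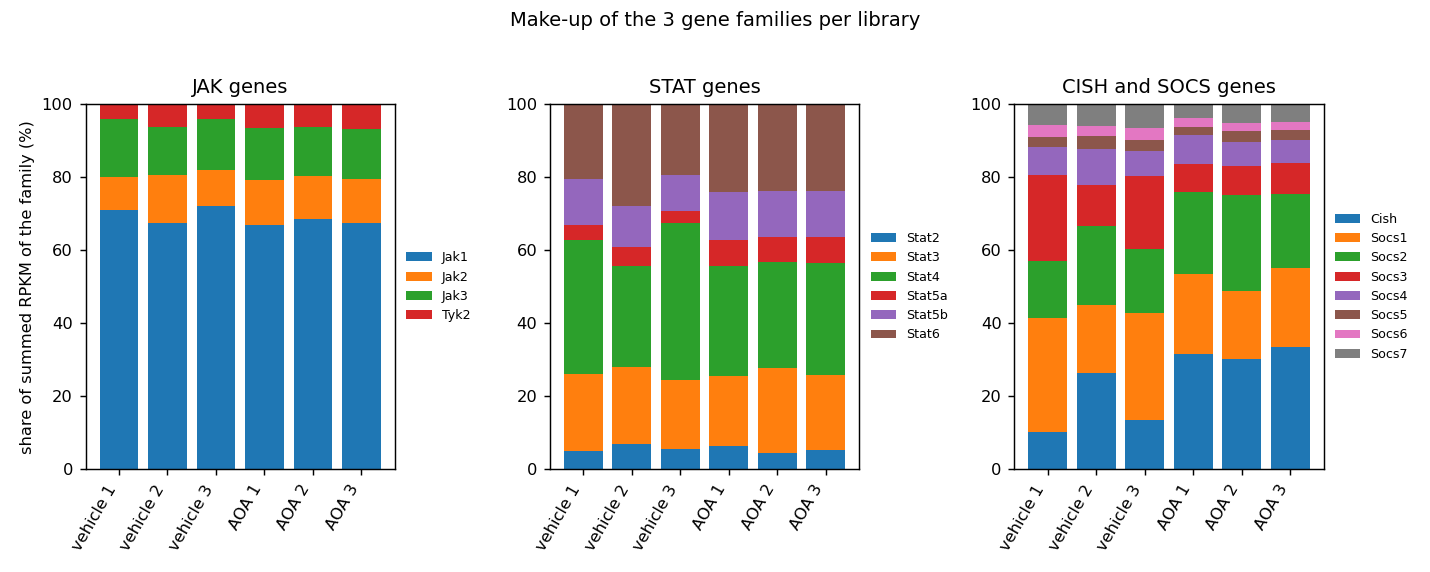
Share of each gene in the summed RPKM of its family (percent, bars stacked to 100) in each library, for the 4 JAK, 6 STAT and 8 CISH and SOCS genes. The JAK panel looks alike in all 6 libraries, with Jak1 between 66.9% and 72.1%, whereas Cish takes 30.2% to 33.4% of the inhibitors with AOA and 10.1% to 26.5% with vehicle.

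Per length, the order of the 10 genes changed with treatment. With vehicle, the highest was Jak1 (383 ± 74.6 RPKM), followed by Stat4 (131 ± 50.1), Jak3 (78.6 ± 19.96), Stat3 (71.3 ± 11.6), Stat5b (39.3 ± 8.08) and Socs1 (38.9 ± 10.8), each as RPKM with SD and n = 3. Socs3, Socs2 and Cish came next at 27.2 ± 10.01, 26.7 ± 4.17 and 24.6 ± 12.6 RPKM, and Stat5a was lowest at 14.7 ± 1.11 RPKM. Neighbours whose means differed by less than the larger SD of the pair were Jak3 and Stat3, Stat5b and Socs1, Socs3, Socs2 and Cish among themselves, and Cish and Stat5a. With AOA, Jak1 (134 ± 16.6 RPKM) and Stat4 (61.7 ± 8.73) still led, but Cish (57.1 ± 1.90) came next and was within the SD of Stat4. Stat3 (44.0 ± 9.42), Socs2 (41.6 ± 7.28) and Socs1 (37.2 ± 2.14) followed, each within the SD of its neighbour. Jak3 (27.2 ± 2.37) and Stat5b (26.2 ± 3.12) lay together, as did Stat5a (14.7 ± 1.85) and Socs3 (14.2 ± 0.77). Among all tested genes, Jak3 went from the percentile 92.6 to 74.0 of mean RPKM, and Cish from 73.1 to 87.8.

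The spread among vehicle cultures had a direction. For all 8 called genes among the 10, vehicle replicate 2 was the vehicle library nearest to the AOA mean, while the same held for 57.1% of all 6233 called genes. With Jak2, Tyk2, Stat2 and Stat6 included it held for 9 of 12 called genes, or 75%. Without that library the 8 calls remained, with log2 fold changes of -1.63 for Jak1, -1.68 for Jak3, -0.79 for Stat3, -1.32 for Stat4, -0.70 for Stat5b, 1.75 for Cish, 0.81 for Socs2 and -1.16 for Socs3. That these are larger in size than with all 6 libraries follows from leaving out the library nearest to the AOA group. The number of the 10 called lower was 6 without vehicle replicate 2 and 3 without AOA replicate 1, and the number called higher was 2 with any library left out.

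**Figure D4:**
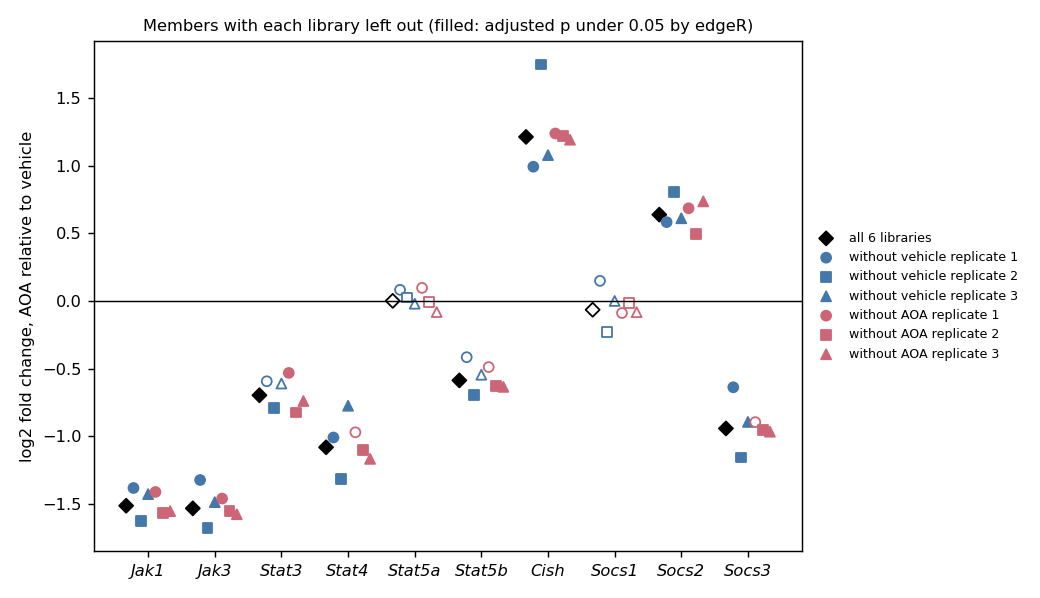
Log2 fold change of AOA relative to vehicle (edgeR) for the 10 genes with all 6 libraries (black diamonds) and with each vehicle (blue) or AOA (red) library left out, filled where the adjusted p is under 0.05. Cish reaches 1.75 without vehicle replicate 2, and Stat3, Stat4, Stat5b and Socs3 have open symbols on at least 1 occasion.

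Upstream of these genes, the 3 chains of the IL-2 receptor were not called. Il2ra, the α chain, was at 535, 897 and 593 CPM with vehicle and 479, 1014 and 568 CPM with AOA, with the highest level in mouse 2 in both groups (log2 fold change 0.026 ± 0.30 SE, edgeR, adjusted p = 0.950, with a sign that differed between settings). Il2rb, the β chain, had a log2 fold change of -0.32 (edgeR, adjusted p = 0.314), and Il2rg, the common γ chain, of 0.15 (edgeR, adjusted p = 0.511). Of 18 receptor genes tested from 19 listed, 6 fell and 2 rose, with a median log2 fold change of -0.32, beside the shares over all genes given above. The largest falls with at least 10 CPM were those of Il7r (-4.46, adjusted p = 1.12e-05), Il12rb2 (-1.98, adjusted p = 9.00e-04) and Ifngr1 (-1.72, adjusted p = 1.20e-04), chains of the receptors for IL-7, IL-12 and IFNγ. Il12rb2, at 578, 281 and 650 CPM with vehicle and 91.9, 161 and 130 CPM with AOA, fell together with Stat4 and Tyk2. The rises of Il6ra (1.12, adjusted p = 0.0207) and Il21r (0.45, adjusted p = 0.0368) did not keep their calls with each library left out. With each library left out in turn, Il6ra lay between 0.83 and 1.63 and Il21r between 0.36 and 0.58 in log2 fold change. In the fits that lost the call, Il6ra lay between 0.98 and 1.22 and Il21r between 0.36 and 0.51. The call of Il6ra was lost without vehicle replicate 1 (adjusted p = 0.0535) or AOA replicate 1, 2 or 3 (0.0552, 0.0515 and 0.0805). That of Il21r was lost without vehicle replicate 1 or 2 (0.0652 and 0.0523) or AOA replicate 1, 2 or 3 (0.0632, 0.0564 and 0.113).

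Of 11 ligand genes listed, 4 were tested. Il10 and Il15 were below the filter on low counts, and the rest were not analysed here. Of the 4, Lif and Osm, cytokines of the IL-6 family, were called higher, as were 26.2% of all tested genes. Lif was at 5.71, 13.3 and 7.55 CPM with vehicle and 104, 99.2 and 98.4 CPM with AOA (log2 fold change 3.50, adjusted p = 2.33e-05 by edgeR). Osm was at 23.5, 39.1 and 23.9 CPM against 143, 165 and 137 CPM (log2 fold change 2.36, adjusted p = 4.47e-05 by edgeR). In both genes the AOA libraries lay far above the vehicle libraries. Ifng and Csf2 were below 10 CPM in every library and were not called.

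Among other brakes of the pathway, more genes rose than fell. Of 14 listed and tested, 8 rose, 2 fell and 4 were not called, with a median log2 fold change of 0.48, where 26.2% of all tested genes rose and 26.8% fell. Without vehicle replicate 1, 5 were called higher and 1 lower. Ptpn1, a phosphatase that acts on JAK2 and TYK2, had a log2 fold change of 0.86 (adjusted p = 0.00195 by edgeR). Eloc and Rnf7, parts of the ubiquitin ligase that CIS and SOCS proteins recruit, had log2 fold changes of 0.83 (adjusted p = 0.00574) and 0.79 (adjusted p = 0.00806). Ptprc, which encodes the phosphatase CD45, fell by 0.77 on the log2 scale (adjusted p = 0.00558). Pias4, an inhibitor of STAT activity, had a log2 fold change of -0.54 (adjusted p = 0.0110), and its call was lost without vehicle replicate 1 (adjusted p = 0.0527). None of the rises reached a log2 fold change of 1.

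Genes listed as targets of STAT5, STAT4 and STAT3 came last. Of 12 STAT5 targets beyond the 10 genes, 7 rose, 2 fell and 3 were not called, with a median log2 fold change of 0.59. The shares to set beside the counts of all 3 target lists are again 26.2% higher and 26.8% lower over all tested genes. Osm, Lta (2.31, adjusted p = 1.26e-05), a cytokine of the TNF family, and Ccnd3 (1.31, adjusted p = 6.92e-04), a cyclin of the G1 phase, rose most. Id2 (-1.20, adjusted p = 0.0131), a regulator of effector T cells, and Mcl1 (-0.53, adjusted p = 0.0101), a survival factor, fell. Without vehicle replicate 2 the change of Id2 was -0.65 (adjusted p = 0.0172). Without AOA replicate 2 neither fall was called (adjusted p = 0.0547 and 0.0545), nor was that of Id2 without AOA replicate 3 (0.0604) or that of Mcl1 without vehicle replicate 3 (0.0590). Of 5 STAT4 targets, 4 fell, among them Il12rb2 and the IL-18 receptor chains Il18r1 (-1.23, adjusted p = 2.16e-04) and Il18rap (-1.11, adjusted p = 2.59e-04), with a median of -1.11. Of 5 STAT3 targets tested, 4 fell, with a median of -1.42. Bcl3, a co-regulator of NF-κB, had a log2 fold change of -2.20 (adjusted p = 5.90e-05), and Junb, a subunit of AP-1, of -1.42 (adjusted p = 2.16e-04). Batf, another AP-1 factor, had -0.60 (adjusted p = 0.0192), and its call was lost without vehicle replicate 3 (0.0822) or AOA replicate 2 or 3 (0.0615 and 0.0828). These genes answer to other factors as well, and 5 genes stand in more than 1 list (Il2ra, Il12rb2, Osm, Ifng and Il21, the last not analysed here).

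**Figure D5:**
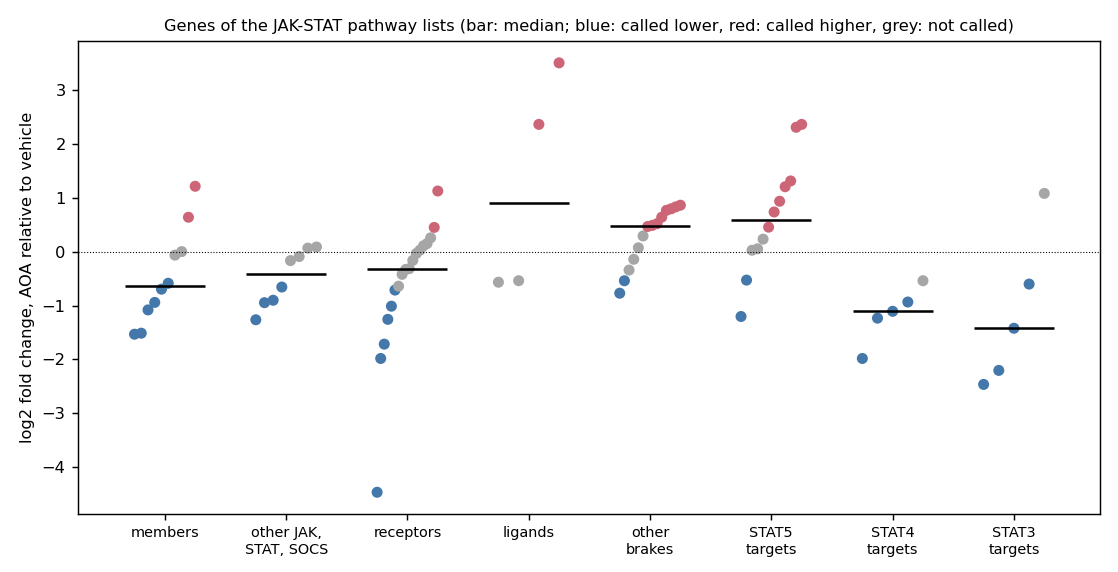
Log2 fold change of AOA relative to vehicle (edgeR) for each tested gene of 8 lists, with the list median as a black bar, in blue where called lower, red where called higher and grey where not called. The medians are -0.64 for the 10 genes, 0.48 for other brakes, 0.59 for STAT5 targets, -1.11 for STAT4 targets and -1.42 for STAT3 targets.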

How the data were processed

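Poly(A) RNA libraries were prepared with a stranded kit and sequenced as paired-end reads. The authors ran STAR with its defaults. They deposited, for each gene, the raw count of reads that mapped uniquely, together with a gene length. Per the labels' processing notes the counter was featureCounts and the build mm10, which is GRCm38. The sources used here do not give versions, annotation or strand setting.

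The main test was the quasi-likelihood test of edgeR 4.0.16 (R 4.3.3, robust option) on all libraries, after filterByExpr (minimum count 10) and TMM scaling, and p-values were adjusted over 11759 genes by Benjamini-Hochberg. Log2 CPM used a prior count of 2. Ratios of related genes were compared by an exact permutation test in scipy 1.17.1. Alternatives were DESeq2 1.42.0, limma 3.58.1 (voom), other scalings and filters, a replicate block for the mouse, fits without each library in turn, and a log2 fold change of at least 1. The edgeR, blocked edgeR, limma and DESeq2 fits were tested on simulated data. Coordinates and promoters came from RefSeq for GRCm38, and exact 75-base stretches shared between genes from GENCODE vM21.

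The pairing comes from the labels, which give the same 3 mouse donors in both groups. Within each mouse, deviations from group means correlated with r of 0.087, 0.189 and 0.194 across genes, which are not independent replicates. Replicates differed beyond sampling noise (chi-square per gene 10.02 to 71.1) and were counted separately. The genes and lists were chosen with earlier results of these data known. Text names the 10 genes, other JAK, STAT and SOCS genes, the IL-2 receptor chains and, from each other list, up to 3 called genes per direction with the largest change and at least 10 CPM. A gene of the lists is not reported here.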

Additional observations from a re-analysis of the deposited data

How the results depend on the processing

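The calls of the 10 genes were the same with DESeq2, limma, median-of-ratios size factors, total counts, no low-count filter, a filter at 10 CPM and the mouse as a replicate block, and so were those of the other JAK, STAT and SOCS genes examined. With the replicate block 3126 genes were called higher and 3166 lower, against 3086 and 3147, and it changed no call of the 10 genes, the other JAK, STAT and SOCS genes or the genes named from the pathway lists. Cell type markers were not looked up under the alternatives. A log2 fold change of at least 1 left, by construction, 1418 genes higher and 1663 lower over all genes. Of the 10 genes it left 1 higher and 3 lower. Among the other JAK, STAT and SOCS genes 1 lower gene remained. The cutoff also left 1 higher and 5 lower receptors, 2 higher ligands, and 0 of the other brakes in either direction. Of the targets, 4 higher and 1 lower remained for STAT5, 3 lower for STAT4 and 3 lower for STAT3. DESeq2 and the fit with no low-count filter each called 1 ligand lower, Il10, which the filter had removed.

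With each library left out, 2519 to 3499 genes were called higher and 2433 to 3297 lower. The number of the 10 genes called lower ranged from 3 to 6. For the lists, higher receptors ranged from 0 to 2, lower receptors from 5 to 8 and lower ligands from 0 to 1. Higher ligands stayed at 2. Higher brakes ranged from 5 to 8 and lower brakes from 1 to 2. Higher STAT5 targets ranged from 5 to 7 and lower ones from 0 to 2, and higher STAT3 targets from 0 to 1 and lower ones from 3 to 4. Lower STAT4 targets and lower genes among the other JAK, STAT and SOCS genes both stayed at 4. The ligand called lower was Il10 in each case. The STAT3 target called higher was Fos, without AOA replicate 3. The sign of a change near 0 was not stable. For Stat5a it was -0.0028 with limma, -0.032 with the filter at 10 CPM, -0.0039 with the replicate block and -0.082 to 0.097 with each library left out. For Il2ra it was -0.0075, -0.011, -0.014 and -0.36 to 0.32 under the same settings. With each library left out the change lay between -0.23 and 0.15 for Socs1, -0.016 and 0.28 for Socs4, -0.092 and 0.24 for Socs5, and -0.21 and 0.051 for Socs7, and the difference in the ratio of Jak1 to Jak3 between -0.065 and 0.036. The cause of these shifts was not tested. The lowest count of any of the 10 genes in a library was 577, and the narrowest of their 95% intervals was that of Stat5a, from -0.31 to 0.32.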

Other observations

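Parts of several of the 10 genes are shared with other annotated transcripts, as counted by 75-base stretches of the longest protein-coding GENCODE transcript that occur unchanged in a transcript of another gene. The share was 25.9% for Stat4, all with Gm28177, 14% for Socs2, all with Gm9847, 8.37% for Jak3, all with Insl3, and 13.2% for Cish, mostly with Gm17041. It was 7.53% for Stat5b, with Stat5a. Jak1, Stat3, Socs1 and Socs3 shared no such stretch. Only uniquely mapped reads were counted, and how reads in overlapping annotations were assigned is not stated.

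Among the other lists, TTCNNNGAA occurred in a promoter window of Il7r, Il12rb2, Ifnar1 and Ifnar2 (4 of 14 receptor genes with a window), of 3 of 5 STAT4 targets (Ifng, Il18r1 and Il12rb2), of 2 of 8 ligand genes (Il4 and Ifng) and of 1 of 9 STAT5 targets (Lta), against 9.55% of all genes with a window. It occurred in 0 of 5 other JAK, STAT and SOCS genes, 0 of 10 other brakes and 0 of 5 STAT3 targets with a window.

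Within groups, AOA replicate 1 also differed from its fellows. The chi-square per gene was 71.1 and 64.6 between AOA replicate 1 and AOA replicates 2 and 3, but 10.53 between AOA replicates 2 and 3. Among the 10 genes, AOA replicate 1 had the lowest AOA level of Jak1, Jak3, Stat3, Stat4, Stat5a, Stat5b, Cish and Socs3. How often this held over all tested genes was not counted, so it is not shown to be particular to these genes.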
